A study of Caenorhabditis elegans with 8 samples.

Results

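The heterochronic timing genes of Caenorhabditis elegans described here are the 9 coding sequences (CDS) lin-14 (T25C12.1), lin-28 (F02E9.2), hbl-1 (F13D11.2), daf-12 (F11A1.3), lin-46 (R186.4), lin-41 (C12C8.3), lin-42 (F47F6.1), lin-29 (W03C9.4) and mab-10 (R166.1). They were taken by sequence name from a table of 20505 CDS and are described across all 8 libraries of that table. Each value is a ribosome occupancy: reads of ribosome-protected fragments, the pieces of mRNA held inside ribosomes when the rest is digested, given as RPKM (reads scaled to the length of the feature and to the reads of the library). All worms were of the wild-type strain N2, grown from synchronised L1 larvae on plates with NA22 bacteria and used whole, with no further treatment. Young adults gave 4 libraries, which crossed monosomes from a gel filtration column or a sucrose gradient with a commercial profiling kit or the submitters' own (in-house) protocol. Worms of the fourth larval stage (L4) gave 4 libraries that differed in the gel window cut for the fragments: 25 to 30, 28 to 30, 28 to 35 or 26 to 34 nt. Which window belongs to which L4 column (5, 6, 7 or 8) could not be read from the labels, and the L4 libraries go by their column numbers here. The labels name no isolation method or kit for them.

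These genes set the order in which larval cell fates follow one another, above all in the seam cells of the lateral skin. LIN-14, LIN-28 and HBL-1 hold cells in early-larval programs until microRNAs of the lin-4 and let-7 families repress them. Late in larval life let-7 also represses LIN-41, which frees the transcription factor LIN-29 and its cofactor MAB-10 to carry the switch to adult skin: seam cells stop dividing, fuse and make adult cuticle. LIN-41 has a separate task in the germ line, where it acts in growing oocytes.

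The libraries held 18018744 reads (kit column), 38132794 (kit gradient), 25502243 (in-house column) and 32494131 (in-house gradient) for young adults, and 26078844, 21814060, 4999364 and 3684924 for L4 libraries 5, 6, 7 and 8. A single specimen number runs through the titles of all young-adult libraries, and the labels name no separate cultures at either stage, so p-values measure only the spread between these libraries, which may be technical. Stage also coincides with the 2 experiments of the series, so stage and experiment cannot be told apart. L4 library 8 stood apart from its label. Across 13592 CDS its log2 values had a Pearson r of 0.963 to 0.975 with the young-adult libraries and of 0.774 to 0.785 with L4 libraries 5 to 7, a description over CDS that share their libraries. It was kept as L4 in the fit on 8 libraries and left out of the fit on 7, and the stage results of the timing genes are given from both. Genes of the other lists are given from the 7-library fit, with the genes whose call was lost with 8 libraries named as such. The calls of the 9 genes in the 8-library fit were fragile: leaving out any single one of the other 7 libraries left 0 of them called, with 381 to 1892 CDS called over the whole table and 5395 to 6119 at an unadjusted limma p under 0.05.

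By stage, lin-41 was far higher in young adults, lin-42 was far higher in L4, and lin-29 with its cofactor mab-10 stood about 5-fold lower in young adults than in L4 libraries 5 to 7. The early regulators lin-14, hbl-1 and daf-12 moved by less, by amounts that depended on the scaling, and lin-28 was not called. In the 7-library fit 1 gene rose (lin-41), 6 fell and 1 was not called, of the 8 that passed the filter on low values. In both stage fits hbl-1 passed it only through L4 libraries 5 to 7, the group where it was high. Over all CDS, 69.3% were called in that fit, 22.7% higher and 46.6% lower in young adults, so a call by itself sets no gene apart. In the 8-library fit 1 gene rose, 3 fell and 4 were not called, against 38.7% of all CDS called, 11.1% higher and 27.6% lower. The median difference of the 8 genes was -0.68 in the 7-library fit and -0.54 in the 8-library fit, beside medians over all tested CDS of -0.34 and -0.26. Centring each library on its median raised every young adult minus L4 difference. With centring 1 gene was higher (lin-41) and 3 were lower (lin-42, lin-29 and mab-10) with 7 libraries, where 67.5% of all CDS were called, 36.6% higher and 30.9% lower. With centring and 8 libraries lin-41 was higher and lin-42 lower, where 37.5% were called, 21.7% higher and 15.8% lower. Voom on the recovered reads called 7 of the genes with 7 libraries (70.6% of all CDS) and 6 with 8 (56.3%).

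**Figure D1:**
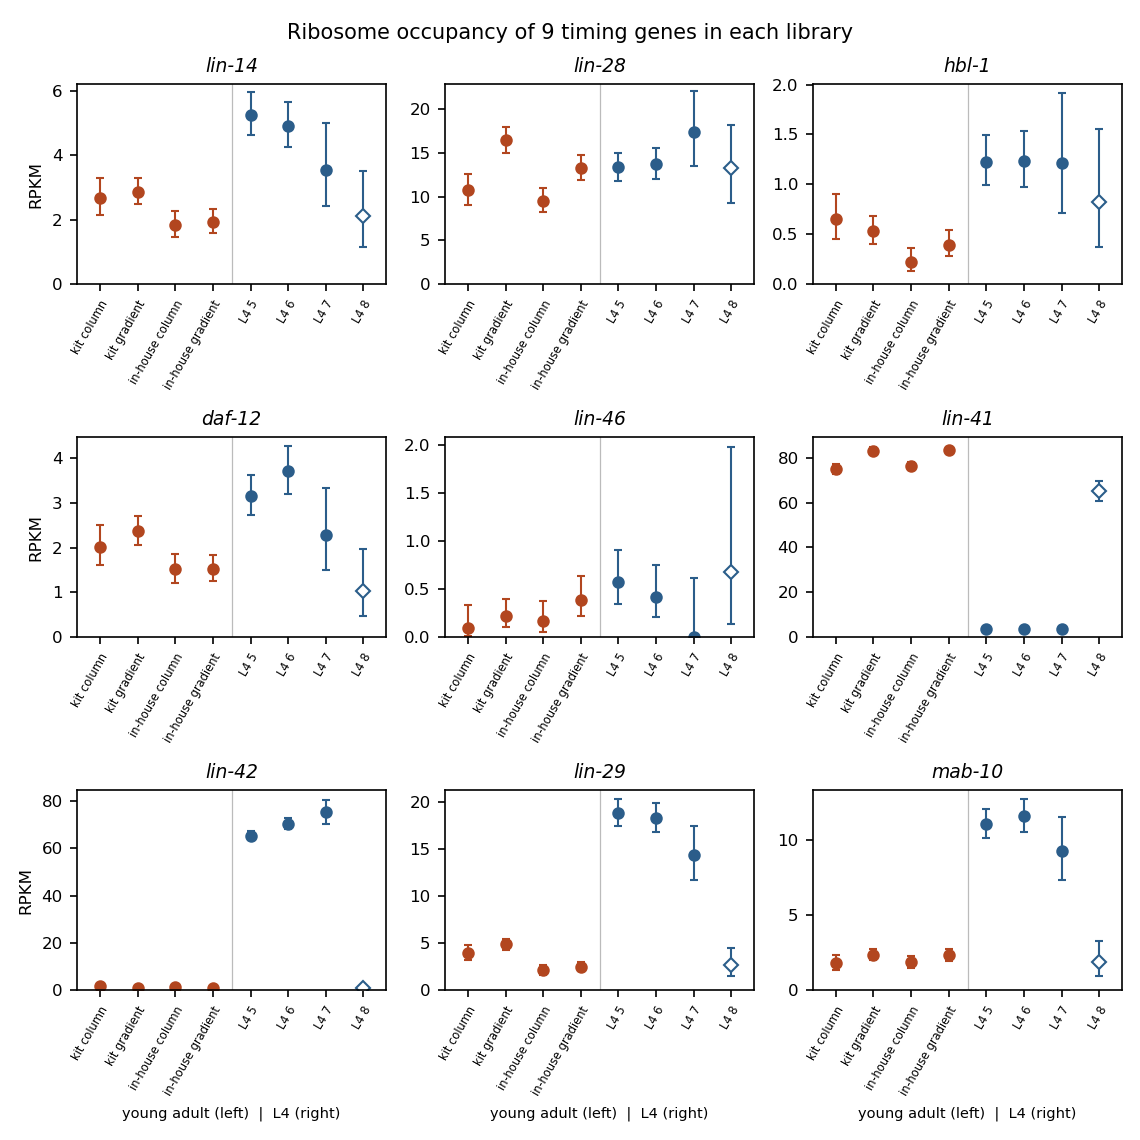
RPKM of each of the 9 genes (one panel each, axis from 0) in the 4 young-adult libraries (left, brown) and the 4 L4 libraries (right, blue; library 8 as an open diamond), with 95% Poisson intervals of the recovered reads. For lin-41 library 8 lies at 65.2 RPKM, far above L4 libraries 5 to 7, and for lin-42 it lies at 0.951 RPKM, far below them.

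The let-7 target lin-41 encodes an RNA-binding protein of the TRIM-NHL family. It had 75.0 RPKM in the kit column library, 83.1 in kit gradient, 76.4 in in-house column and 83.3 in in-house gradient young adults, against 3.39, 3.45, 3.80 and 65.2 RPKM in L4 libraries 5, 6, 7 and 8. The 4 young-adult values lay close together and above every L4 value, library 8 included, and library 8 lay nearer to the young adults than to the other L4 libraries. The mean was 79.4 ± 4.36 RPKM in young adults (SD, n = 4) and 3.55 ± 0.223 in L4 libraries 5 to 7 (SD, n = 3), a ratio of 22.4. The limma difference was +4.14 on the log2(RPKM + 1) scale (SE 0.12, adjusted p = 5.29e-10) without library 8, and +3.18 (SE 0.82, adjusted p = 0.0245) with it. The depth behind these values was 4693 to 11004 reads in young adults and 66 to 307 reads in L4 libraries 5 to 7. In whole worms fewer cells of a type and less RNA per cell cannot be told apart, nor can mRNA abundance and translation, since no matched mRNA library was used here.

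Oocyte genes moved with lin-41. All 12 oocyte markers rose in both fits, with a summed level of 4036 to 4678 RPKM in young adults and 40.8 to 47.8 RPKM in L4 libraries 5 to 7. None of them was at 0 across a group, and library 8 had 3756 RPKM. Over all CDS 22.7% were called higher with 7 libraries and 11.1% with 8. With 7 libraries the marker puf-5 (0.267 ± 0.244 RPKM in L4 libraries 5 to 7) passed the filter on low values only through young adults. Its rise carries that selection, and how many of the 12 markers share it was not counted. The eggshell proteoglycan genes led the list: cpg-1 averaged 1370 ± 212 RPKM in young adults and 1.60 ± 0.106 in L4 libraries 5 to 7, and cpg-2 averaged 1178 ± 101 and 4.81 ± 0.281 (SD, n = 4 and n = 3). Their part in the lin-41 difference was not tested. Among 10 genes linked to LIN-41 in oocytes (its mRNA targets and protein partners there), 8 rose, 1 fell and 1 was not called with 7 libraries, and 7 rose and 1 fell with 8. The PUF family gene puf-3 averaged 213 ± 10.1 RPKM in young adults and 0.532 ± 0.134 in L4 libraries 5 to 7, and oma-2, an oocyte maturation factor, averaged 171 ± 35.7 and 0.209 ± 0.183. With 7 libraries both passed the filter only through young adults. So did cdc-25.3, chosen after its values were seen and at 0 across L4 libraries 5 to 7. The rises of these genes carry that selection, and the cdc-25.3 call was lost with 8 libraries (+1.95, limma adjusted p = 0.0648). The cell cycle kinase gene cdk-1 rose less, by 1.89 (adjusted p = 1.63e-05 in limma, 7 libraries). The gene that fell was rnp-1, with 17.3 ± 2.37 RPKM in young adults and 30.9 ± 1.79 in L4 libraries 5 to 7.

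The Period homologue lin-42, whose level is known to cycle with the molts, ran the other way. It had 1.51 RPKM (kit column), 1.03 (kit gradient), 1.32 (in-house column) and 0.849 (in-house gradient) in young adults, against 65.4, 70.3, 75.3 and 0.951 RPKM in L4 libraries 5, 6, 7 and 8. L4 libraries 5 to 7 were high and every other library was low, so with library 8 the 2 stages overlapped. Library 8 held 8 lin-42 reads, with a counting interval of 0.41 to 1.87 RPKM that covers the whole young-adult range. Means were 1.18 ± 0.293 RPKM in young adults and 70.4 ± 4.94 in L4 libraries 5 to 7, a 59.8-fold lower level in young adults. On the log2 scale limma gave -5.04 (SE 0.14, adjusted p = 5.65e-10) with 7 libraries and -3.74 (SE 1.10, adjusted p = 0.0322) with 8.

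Genes of cuticle synthesis and molting moved with lin-42. All 16 genes of the larval cuticle and molt list fell in both fits, with a summed level of 42.8 to 52.9 RPKM in young adults and 10900 to 11422 in L4 libraries 5 to 7, while library 8 had 100.2 RPKM. Over all CDS 46.6% were called lower with 7 libraries and 27.6% with 8. Only 9 of the 16 passed the filter on low values within young adults. The others passed it only with L4 libraries included, the group where they were high, so their falls carry that selection. The collagen genes dpy-13 (3.53 ± 0.758 RPKM in young adults, 3536 ± 256 in L4 libraries 5 to 7) and sqt-1 (1.26 ± 0.0824 and 2475 ± 81.5) were the most occupied, and the molting protease gene nas-37 fell least among the named ones, with 12.8 ± 2.50 RPKM in young adults and 87.0 ± 3.67 in L4 libraries 5 to 7. Of 11 matched hypodermis markers 10 fell with 7 libraries and 9 with 8, and none was at 0 across a group. Their summed level was 30.8 to 46.4 RPKM in young adults and 2718 to 3422 in L4 libraries 5 to 7. The remaining marker with 7 libraries was elt-3 (+0.38, limma adjusted p = 0.136). With median centring 1 rose and 10 fell with 7 libraries. Only 5 of the 11 hypodermis markers passed the filter on low values within young adults. The others passed it only with L4 libraries included, the group where they were high, so their falls carry that selection. The lists are not separate, since rol-6 is on both and nhr-23 and lin-26 are also among the other timing regulators. The part of these genes in the lin-42 difference was not tested.

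The zinc finger transcription factor gene lin-29, the last step of the pathway, had 3.94 RPKM in the kit column library, 4.86 in kit gradient, 2.09 in in-house column and 2.47 in in-house gradient young adults. In L4 it had 18.9, 18.3, 14.3 and 2.70 RPKM in libraries 5, 6, 7 and 8. Libraries 5 to 7 lay well above all young adults, and library 8 fell inside the young-adult range. The limma difference was -2.11 (SE 0.23, adjusted p = 1.62e-05) with 7 libraries. With 8 libraries the value was -1.53 (SE 0.54, limma adjusted p = 0.0507), so the call was lost. On the same 8 libraries voom called it (-2.07, limma adjusted p = 0.0115), and median centring did not (-1.20, limma adjusted p = 0.0722).

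Its cofactor mab-10, a homologue of the mammalian NAB proteins, had 1.78 RPKM (kit column), 2.37 (kit gradient), 1.84 (in-house column) and 2.31 (in-house gradient) in young adults, against 11.05, 11.6, 9.26 and 1.86 RPKM in L4 libraries 5 to 8. As for lin-29, libraries 5 to 7 were high and library 8 lay inside the young-adult range. The limma difference was -1.92 (SE 0.14, adjusted p = 8.14e-07) with 7 libraries and -1.42 (SE 0.45, adjusted p = 0.0394) with 8. The mean RPKM of lin-29 was 5.14-fold lower in young adults than in L4 libraries 5 to 7, and that of mab-10 was 5.13-fold lower. The ratio of lin-29 to mab-10 in RPKM was 2.22 (kit column), 2.05 (kit gradient), 1.14 (in-house column) and 1.07 (in-house gradient) in young adults, and 1.71, 1.58, 1.55 and 1.45 in L4 libraries 5 to 8. Within young adults this ratio was higher in the kit libraries, and the L4 ratios lay between the kit and the in-house ones.

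**Figure D2:**
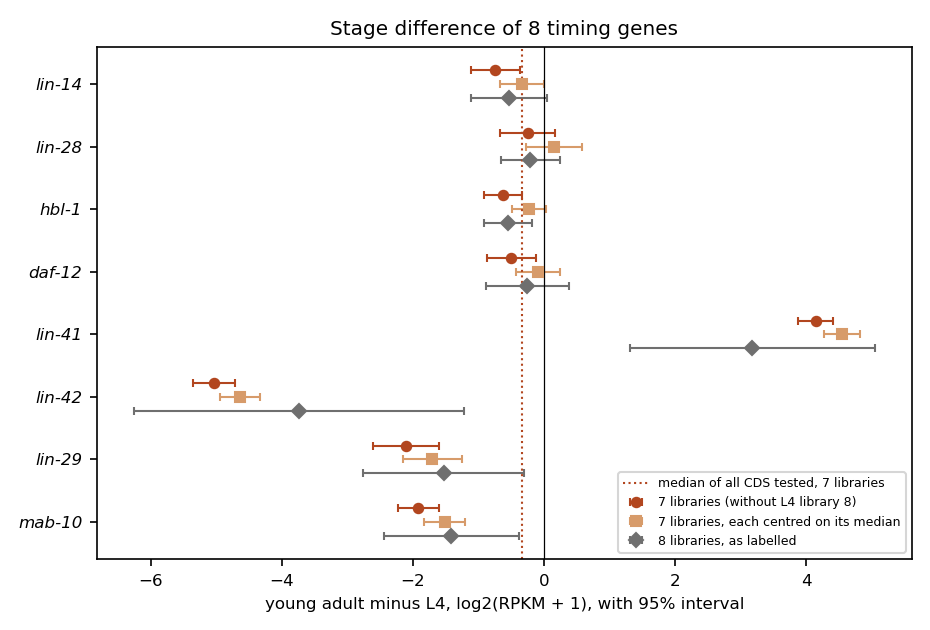
Young adult minus L4 difference in log2(RPKM + 1) (horizontal axis) with 95% intervals from limma for the 8 timing genes that passed the filter, without L4 library 8 (circles), the same with each library centred on its median (squares) and with all 8 libraries (diamonds); the dotted line marks the median of all CDS tested, -0.34. Only lin-41 lies to the right in all 3 fits, lin-42 lies furthest left, and lin-14, hbl-1 and daf-12 sit near the dotted line.

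The collagen genes of the adult cuticle list, several of which are known to depend on LIN-29, divided sharply. With 7 libraries 3 rose and 8 fell, and with 8 libraries 3 rose and 8 fell as well. The risers were col-19, the classic marker of adult skin (2857 ± 353 RPKM in young adults, 49.4 ± 4.87 in L4 libraries 5 to 7), col-119 (4687 ± 1197 and 27.6 ± 3.96) and col-140 (5774 ± 882 and 93.6 ± 10.5). The largest fall was that of the blister gene bli-2, needed for the struts of the adult cuticle, with 0.696 ± 0.107 RPKM in young adults and 1456 ± 209 in L4 libraries 5 to 7, and col-38 had 4.01 ± 0.952 and 3413 ± 401 RPKM. The list was thus not uniform, and its median of -8.34 (7 libraries) describes the L4-high majority. Within young adults 8 of the 11 genes passed the filter on low values. The others, bli-2 among them, passed it only with L4 libraries included, where they were high, so their falls carry that selection. Over all CDS 22.7% were called higher and 46.6% lower with 7 libraries, and 11.1% and 27.6% with 8. In library 8 col-19 had 2549 RPKM, col-38 had 26.2 and bli-2 had 1.97.

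Among the early regulators, lin-14 encodes the DNA-binding protein that the microRNA lin-4 represses at the start of larval life. It had 2.67 RPKM (kit column), 2.87 (kit gradient), 1.84 (in-house column) and 1.94 (in-house gradient) in young adults, against 5.26, 4.92, 3.54 and 2.10 RPKM in L4 libraries 5 to 8. Libraries 5 to 7 lay above all young adults, and library 8 lay among the young adults. The limma difference was -0.74 (SE 0.17, adjusted p = 0.00290) with 7 libraries and -0.53 (SE 0.26, adjusted p = 0.121) with 8. Relative to the library medians the 7-library value was -0.34 (adjusted p = 0.0678 in limma), and the call was lost.

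The RNA-binding protein gene lin-28, which keeps let-7 from maturing, had 10.7 RPKM in the kit column library, 16.4 in kit gradient, 9.55 in in-house column and 13.2 in in-house gradient young adults, against 13.3, 13.7, 17.4 and 13.2 RPKM in L4 libraries 5 to 8. The groups overlapped. Its limma difference was -0.25 with an interval of -0.66 to 0.17 (adjusted p = 0.265, 7 libraries) and -0.21 with an interval of -0.66 to 0.24 (adjusted p = 0.397, 8 libraries). With median centring it was +0.16 with 7 libraries and +0.12 with 8. These intervals do not show the levels to be equal. The ratio of lin-41 to lin-28 in RPKM was 5.06 to 8.00 in young adults, 0.219 to 0.255 in L4 libraries 5 to 7 and 4.93 in library 8.

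The Hunchback-like zinc finger gene hbl-1 had 0.652 RPKM (kit column), 0.529 (kit gradient), 0.224 (in-house column) and 0.393 (in-house gradient) in young adults, against 1.22, 1.23, 1.21 and 0.820 RPKM in L4 libraries 5 to 8. All L4 values, library 8 included, lay above all young-adult values, and library 8 was nearer to the other L4 libraries on the log2 scale (distance 0.29) than to the young-adult mean (0.34). Library 8 held only 9 hbl-1 reads, with an interval of 0.375 to 1.56 RPKM, so its place between the stages is not fixed at this depth. The limma difference was -0.63 (SE 0.13, adjusted p = 0.00147) with 7 libraries and -0.55 (SE 0.16, adjusted p = 0.0318) with 8. hbl-1 reached an RPKM of 1 only in L4 libraries 5 to 7, so it was tested only through the group where it was high. Its calls in any fit and its separation of the stages carry that selection. Relative to the library medians the difference was -0.22 in both fits (limma adjusted p = 0.112 and 0.193), and neither call held. Voom on the recovered reads, which adds no RPKM pseudocount, gave -1.56 (SE 0.29, adjusted p = 0.000307) with 7 libraries.

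The nuclear hormone receptor gene daf-12, whose product ties developmental timing to steroid hormone and to the choice of dauer arrest, had 2.02 RPKM (kit column), 2.38 (kit gradient), 1.51 (in-house column) and 1.53 (in-house gradient) in young adults, against 3.15, 3.71, 2.29 and 1.04 RPKM in L4 libraries 5 to 8. The groups overlapped, because library 7 lay below the kit gradient library and library 8 lay below all others. The limma difference was -0.50 (SE 0.17, adjusted p = 0.0222) with 7 libraries and -0.25 (SE 0.28, adjusted p = 0.468) with 8. The 7-library call was lost when any one of in-house gradient, in-house column, L4 5 or L4 6 was left out (limma adjusted p = 0.0546, 0.0589, 0.0642 and 0.0957). With median centring and 7 libraries it was -0.10 (adjusted p = 0.590 in limma), and with quantile normalization +0.0900.

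The gephyrin-related gene lin-46, which acts downstream of lin-28, was the least occupied. It had 0.0922 RPKM (kit column), 0.218 (kit gradient), 0.163 (in-house column) and 0.383 (in-house gradient) in young adults, against 0.573, 0.419, 0 and 0.676 RPKM in L4 libraries 5 to 8. These values rest on 2 to 15 reads in young adults and on 18, 11, 0 and 3 reads in L4. The 0 in library 7 allows a level of up to 0.498 RPKM by the limit of 3 reads used here for a count of 0, and the plotted two-sided 95% Poisson interval reaches 0.613 RPKM. lin-46 did not pass the filter on low values and was not tested, and no stage difference was detectable at this depth.

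Ordered by RPKM, which is per length, young adults had lin-41 first, then lin-28 (12.5 ± 3.04 RPKM), lin-29, lin-14, mab-10, daf-12, lin-42, hbl-1 and lin-46. Neighbouring ranges overlapped for lin-29 and lin-14, lin-14 and mab-10, mab-10 and daf-12, and hbl-1 and lin-46. Within a library, lin-29 still exceeded lin-14 and hbl-1 exceeded lin-46 in 4 of 4, while lin-14 exceeded mab-10 in 3 of 4 and mab-10 exceeded daf-12 in 2 of 4. lin-41 alone held 76.8% of the summed RPKM of the 9 genes in young adults and stood above 92.4% of all CDS. In L4 libraries 5 to 7 the order was lin-42, lin-29 (17.2 ± 2.47 RPKM), lin-28 (14.8 ± 2.24), mab-10, lin-14, lin-41, daf-12, hbl-1 and lin-46, with overlap of lin-29 and lin-28, lin-14 and lin-41, and lin-41 and daf-12. There lin-42 held 55.98% of the sum and stood above 90.2% of all CDS. lin-41, at the top in young adults, stood above 51.4% of CDS in L4, and lin-42 stood above 45.9% in young adults. The summed level of all 9 was 94.9 to 114 RPKM in young adults, 122 to 128 in L4 libraries 5 to 7 and 88.5 in library 8.

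**Figure D3:**
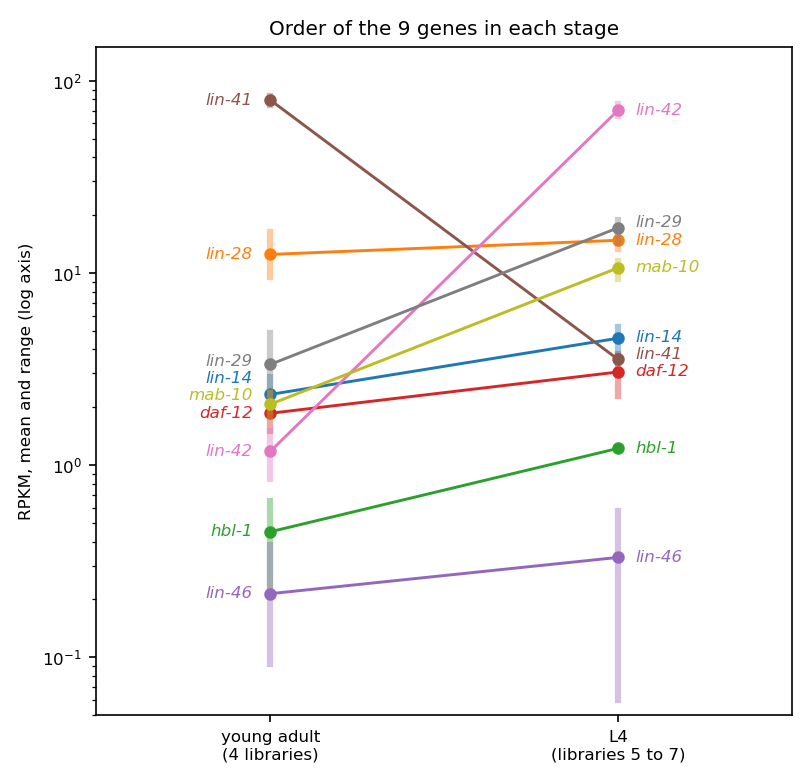
Mean RPKM (log axis) of each timing gene in young adults (left, 4 libraries) and L4 (right, libraries 5 to 7); pale bars span the lowest to the highest library, and that of lin-46 in L4 reaches 0 and is cut at the axis. The lines of lin-41 (79.4 RPKM in young adults, 3.55 in L4) and lin-42 (1.18 in young adults, 70.4 in L4) cross.

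The ranges of the stages did not overlap for 6 of the 8 tested genes without library 8 (67.8% of all tested CDS did not overlap), and for 2 of 8, lin-41 and hbl-1, with it (29.7% of all tested CDS). hbl-1 was tested only through its high L4 values, so its separation is not support for a stage difference. The ranges of lin-46, which was not tested, overlapped. Library 8 fell inside the young-adult range for 5 genes and inside the range of L4 libraries 5 to 7 for none. On the log2 scale it was nearer to the young-adult mean for 7 genes and nearer to the other L4 libraries for hbl-1 and lin-46, which had 9 and 3 reads there. Shares of all CDS for these library 8 counts were not computed. Across 13592 CDS library 8 had Pearson r 0.963 to 0.975 with young adults and 0.774 to 0.785 with L4 libraries 5 to 7.

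Other regulators of developmental timing were read as a list of 18 matched genes. With 7 libraries 2 rose, 13 fell and 3 were not called (0 rose and 8 fell with 8 libraries), with a median of -1.09. With median centring 4 rose and 10 fell with 7 libraries, and 3 rose and 7 fell with 8. Within young adults 16 of the 18 passed the filter on low values. The others passed it only with L4 libraries included, so any fall of theirs carries that selection. Over all CDS 22.7% were called higher and 46.6% lower with 7 libraries (36.6% and 30.9% with centring). With 8 libraries these shares were 11.1% and 27.6% (21.7% and 15.8% with centring). The largest fall of the list was that of nhr-23, a nuclear receptor gene of the molting cycle, 11.8-fold lower in young adults (2.14 ± 0.544 RPKM) than in L4 libraries 5 to 7 (difference -3.08, limma adjusted p = 6.51e-08). The Pumilio family gene puf-9 had 13.3 ± 1.96 and 29.7 ± 7.17 RPKM (difference -1.09, adjusted p = 0.000343 in limma) and lin-66 16.4 ± 1.15 and 20.8 ± 0.394. The EGF-like ligand gene lin-3 rose, with 5.68 ± 0.594 RPKM in young adults and 1.32 ± 0.724 in L4 libraries 5 to 7 (+1.57, limma adjusted p = 4.94e-05), and so did ztf-7 (+0.49). With 8 libraries the calls of lin-3 (+1.15, limma adjusted p = 0.0526), ztf-7 (+0.37, limma adjusted p = 0.0969) and lin-66 (-0.28, limma adjusted p = 0.108) were lost. nhl-2, a cofactor of microRNA complexes, had 19.4 ± 2.90 and 19.1 ± 1.17 RPKM and was not called. Chosen after their values were seen, the transcription factor gene blmp-1 fell by 2.66, the F-box gene dre-1, whose product targets BLMP-1, by 2.48, and the casein kinase gene kin-20 by 1.09. The kin-20 call was lost with 8 libraries (-0.70, limma adjusted p = 0.148).

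Small RNA machinery, through which lin-4 and let-7 are made and act, moved mostly the other way. Of 14 genes 9 rose, 2 fell and 3 were not called with 7 libraries, and 7 rose and 2 fell with 8, with medians of +0.81 and +0.67. With median centring 11 rose and 2 fell with 7 libraries, and 10 rose and 1 fell with 8. Over all CDS 22.7% were called higher and 46.6% lower with 7 libraries (36.6% and 30.9% with centring). With 8 libraries these shares were 11.1% and 27.6% (21.7% and 15.8% with centring). The RNA helicase gene cgh-1, abundant in the germ line, had 1870 ± 185 RPKM in young adults and 446 ± 25.5 in L4 libraries 5 to 7. The largest rise was that of pup-2, whose product adds uridines to let-7 precursors with LIN-28, with 46.3 ± 6.73 RPKM in young adults and 3.77 ± 1.16 in L4 libraries 5 to 7. hrpk-1 rose by 0.73, and the nuclear export receptor gene xpo-1 by 0.90, a call lost with 8 libraries (+0.68, limma adjusted p = 0.0681). The 2 genes that fell were ain-1, a GW182-type partner of Argonautes (22.7 ± 3.22 RPKM in young adults, 56.4 ± 2.69 in L4 libraries 5 to 7), and, chosen after its value was seen, the microRNA Argonaute alg-1 (-0.96). Its paralogue alg-2, also chosen after its value was seen, rose (+1.25), and ain-2, the paralogue of ain-1, was not called (+0.40, limma adjusted p = 0.0597). The 12 oocyte markers rose in the same fits, and their part in these rises was not tested.

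The DAF-12 ligand and dauer pathway had no member that rose. Of 12 tested genes 8 fell and 4 were not called with 7 libraries, and 6 fell with 8. With median centring 7 fell with 7 libraries and 3 with 8. Within young adults 9 of the 12 passed the filter on low values. The others passed it only with L4 libraries included, so any fall of theirs carries that selection. Over all CDS 46.6% were called lower with 7 libraries (30.9% with centring) and 27.6% with 8 (15.8% with centring). The lowest of the list in young adults relative to L4 was strm-1, a sterol methyltransferase gene, with 1.54 ± 0.120 RPKM in young adults and 24.3 ± 4.23 in L4 libraries 5 to 7. The TGF-beta ligand gene daf-7 had 3.02 ± 1.03 and 16.7 ± 5.59 RPKM. Not called were daf-16, the FOXO factor gene (-0.42, limma adjusted p = 0.0510), daf-36, the Rieske oxygenase gene that starts ligand synthesis (-0.33, limma adjusted p = 0.0693), daf-3, a SMAD gene (-0.09, limma adjusted p = 0.601), and, named to complete the count, daf-2, the insulin receptor gene (-0.19, limma adjusted p = 0.227).

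Seam cell genes fell for 10 of 16 tested members, rose for 2 and were not called for 4 with 7 libraries (1 rose and 7 fell with 8). Within young adults only 10 of the 16 passed the filter on low values. The others, wrt-2 among them, passed it only with L4 libraries included, so any fall of theirs carries that selection. The hedgehog-related gene wrt-2 had 0.0967 ± 0.0523 RPKM in young adults and 140 ± 7.74 in L4 libraries 5 to 7, and the Nemo-like kinase gene lit-1 had 12.4 ± 1.02 and 65.6 ± 11.3 RPKM. The hedgehog-related grd-3 rose, with 372 ± 38.1 RPKM in young adults and 97.0 ± 17.4 in L4 libraries 5 to 7, while grd-10 fell by 0.86. The grd-3 call was lost with 8 libraries (+1.34, limma adjusted p = 0.0695). With median centring 6 seam genes rose and 8 fell with 7 libraries, and 1 rose and 4 fell with 8. Over all CDS 22.7% were called higher and 46.6% lower with 7 libraries (36.6% and 30.9% with centring). With 8 libraries these shares were 11.1% and 27.6% (21.7% and 15.8% with centring). The 6 yolk protein genes, made in the adult intestine, rose in both fits, with a summed level of 17410 to 18200 RPKM in young adults, 40.5 to 47.6 in L4 libraries 5 to 7 and 16984 in library 8.

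**Figure D4:**
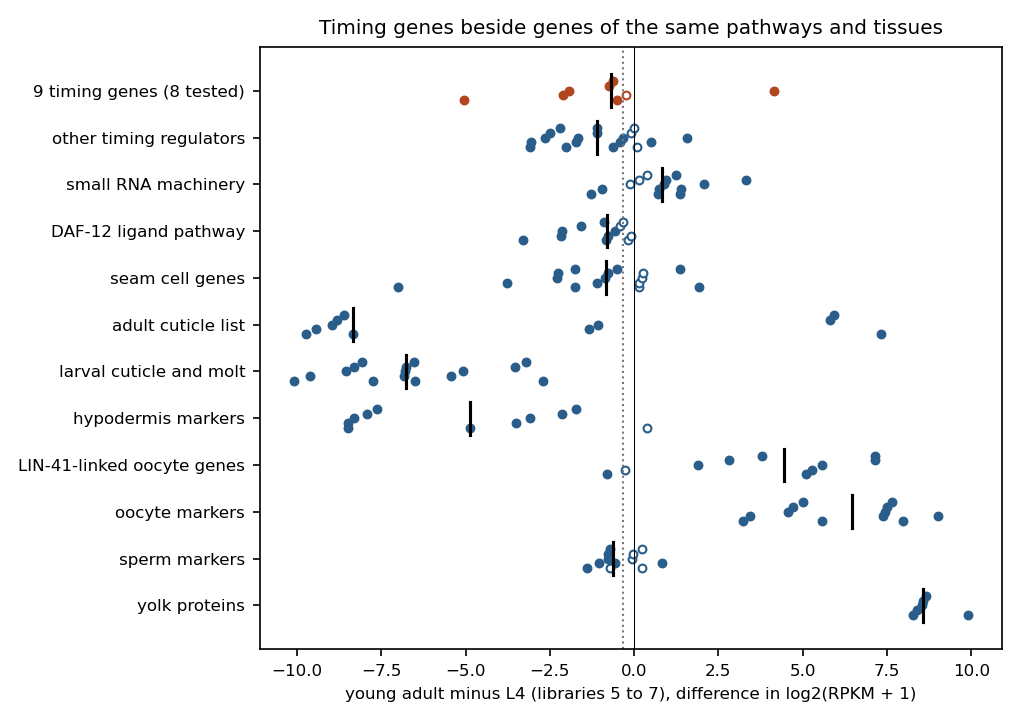
Young adult minus L4 difference in log2(RPKM + 1) from the 7-library fit (horizontal axis), one point per gene, filled where the limma adjusted p was under 0.05, with the median of each list as a black bar and the median of all CDS, -0.34, as a dotted line. The 8 tested timing genes spread from -5.04 (lin-42) to +4.14 (lin-41), while the larval cuticle and molt genes all lie left of 0 and the oocyte and yolk genes all lie right of it.

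Monosome isolation was compared within young adults, the question being how the choice of column or gradient bears on occupancy. Of the 9 genes 7 passed the filter there, since hbl-1 and lin-46 stayed under an RPKM of 1, and 1 of them was called, lower on the column, against 39.0% of all CDS called, 19.8% higher and 19.2% lower. Median centring called 2 (38.1% of all CDS) and voom called 3 (46.9%). That gene was lin-28, lower on the column with both preparations: 10.7 RPKM on the column against 16.4 on the gradient with the kit, and 9.55 against 13.2 in-house (difference -0.50, SE 0.07, limma adjusted p = 0.00615). The mean was 10.1 ± 0.841 RPKM on the column and 14.8 ± 2.25 on the gradient (SD, n = 2 each, which includes the preparation difference). lin-41 averaged 75.7 ± 0.958 RPKM on the column and 83.2 ± 0.108 on the gradient, and its difference of -0.13 (SE 0.04, limma adjusted p = 0.0523) did not pass, but it was called with median centring (-0.19, limma adjusted p = 0.0196). lin-42 averaged 1.41 ± 0.130 RPKM on the column and 0.941 ± 0.130 on the gradient (+0.32, limma adjusted p = 0.101). Voom called both lin-41 (-0.14, limma adjusted p = 0.00548) and lin-42 (+0.59, limma adjusted p = 0.0128). The differences of lin-14, daf-12, lin-29 and mab-10 lay between -0.25 and -0.06, and their intervals all held 0.

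Library preparation gave 2 calls among the same 7 genes, both higher with the kit, against 35.9% of all CDS called, 25.9% higher and 10.0% lower. Median centring called 1 (31.8% of all CDS) and voom called 4 (46.7%). lin-29 was higher with the kit, with 3.94 and 4.86 RPKM in the kit libraries against 2.09 and 2.47 in the in-house ones (difference +0.72, SE 0.10, limma adjusted p = 0.00552), and it stayed called with median centring (+0.60, limma adjusted p = 0.0101). lin-14 was higher too, with 2.67 and 2.87 RPKM in kit libraries against 1.84 and 1.94 in in-house ones (+0.38, SE 0.11, limma adjusted p = 0.0424), but not with median centring (+0.27, limma adjusted p = 0.115). The median over all CDS was itself +0.10. lin-41 (-0.01, interval -0.12 to 0.09) and mab-10 (-0.00196, interval -0.28 to 0.28) were not called, nor were lin-28 (+0.22), lin-42 (+0.12) and daf-12 (+0.34). Voom did call lin-28 (+0.27, limma adjusted p = 0.0319) and daf-12 (+0.56, limma adjusted p = 0.00392). hbl-1, which was not tested, averaged 0.591 ± 0.0876 RPKM with the kit and 0.308 ± 0.119 in-house. Both technical fits had 1 residual degree of freedom per CDS, and when they were fitted with stage on all 8 libraries limma called 0 CDS for either factor, with 223 (isolation) and 364 (preparation) at an unadjusted p under 0.05. That fit leaves the column and kit differences as they were and adds the spread of the L4 libraries, library 8 included, to the error. Its 0 calls are therefore no separate check of these differences.

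**Figure D5:**
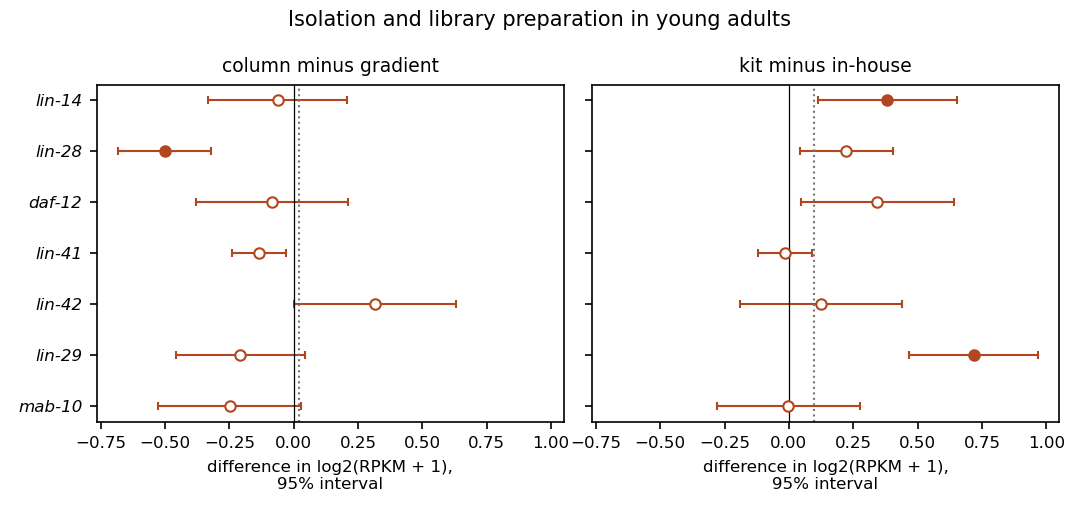
Column minus gradient (left) and kit minus in-house (right) differences in log2(RPKM + 1) with 95% limma intervals for the 7 timing genes tested in the 4 young-adult libraries; filled points had an adjusted p under 0.05 and dotted lines mark the median of all CDS. lin-28 is the filled point on the left at -0.50, and lin-29 at +0.72 and lin-14 at +0.38 are those on the right.

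Among the L4 gel window libraries, the values of the 9 genes in libraries 5, 6 and 7 were close. In 27 pairs of values (9 genes, 3 pairs of libraries) the 95% counting intervals were apart for 3. The share of all CDS with intervals apart was not computed. Over 13592 CDS the log2 values of libraries 5 to 7 had a Pearson r of 0.981 to 0.996. Closeness is therefore not particular to these genes. lin-42 stood at 70.3 RPKM in library 6 and 75.3 in library 7, each above the 65.4 of library 5, and lin-29 stood at 14.3 in library 7, below the 18.9 of library 5. These compare single libraries and have no replicate check. Library 7 held between 0 (lin-46) and 860 (lin-42) reads of these genes, so smaller differences were not detectable there.

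For the 3 genes with a mean of at least 10 RPKM, likeness of pattern was measured as the root mean square difference between log2 values, each centred on its own mean over the 8 libraries, among CDS within 4-fold of the gene's mean. Nearest to lin-41 were gipc-1 (0.187; 67.6 RPKM in young adults, 54.9 in library 8), F41E6.15 (0.192) and C15C6.2 (0.194). Nearest to lin-42 were lpr-1, a lipocalin gene of the apical matrix (0.147; 0.259 RPKM in young adults, 35.8 in L4 libraries 5 to 7), let-4, a gene of the same matrix (0.155), and T05C1.3 (0.166). Nearest to lin-28 were pygo-1 (0.0927), glel-1 (0.0982) and the Mediator subunit gene mdt-19 (0.101).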

How the data were processed

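The authors deposited reads per CDS as RPKM, that is, divided by feature length and library reads. Per the submitters' processing notes, bcl2fastq 1.8.4, Bowtie2 2.2.4 and STAR 2.4 were used, without stated roles. The genome build, the annotation and the counting of reads with several matches are not given in the sources used here.

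RPKM values step by what 1 read is worth, which gave back the reads behind each value, the feature lengths and the library totals (Python 3.11.15, numpy 2.4.6, pandas 2.3.3, scipy 1.17.1). Reads were whole to within 0.0001 for all 19649 CDS that are not at 0 throughout. The length taken was the smallest that made all reads whole, so wholeness is partly built in. A factor shared by reads and length would be lost. Of the recovered lengths 25.0% were multiples of 3. The 95% intervals on single values are exact Poisson intervals of these reads. They cover counting error only, because PCR reads without molecular identifiers are not independent molecules. Gene symbols came from RefSeq locus tags, which matched 20051 of 20505 sequence names.

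The test was limma 3.58.1 in R 4.3.3 (lmFit, then eBayes with a trend in abundance). It was two-sided, on log2(RPKM + 1), and took in every CDS that reached an RPKM of 1 in 2 or more of the libraries compared. P-values were adjusted over all CDS tested by Benjamini-Hochberg, with a threshold of 0.05. Differences on this scale understate the change of low genes. Stage (young adult minus L4) was fitted on all 8 libraries and on 7 without the L4 library numbered 8. The 4 young-adult libraries were fitted with isolation and preparation as terms of the same model. The fits were also run on simulated data with few changed CDS and no library that goes against its label. That setting differs from these data, where 69.3% of CDS were called by stage with 7 libraries, and nothing here rests on it.

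The members and the other gene lists were chosen with earlier results of these data known. All 9 members are named. From each other list, up to 4 genes with the highest mean RPKM and those with the largest rise and fall by stage could be named, plus genes said to be chosen after their values were seen. Lists are given for other timing regulators, small RNA machinery, the DAF-12 ligand pathway, seam cells, adult cuticle, larval cuticle and molt, LIN-41-linked oocyte genes, and oocyte, sperm, yolk, hypodermis, muscle, neuron and intestine markers. Of 178 listed symbols 174 matched the table (lss-4, imb-4, bus-8 and unc-17 did not). Alternatives were pseudocounts of 0.1 and 5, no filter, a filter at an RPKM of 10, median centring, quantile normalization, no abundance trend, limma's voom on the recovered reads, leaving out each library, and the technical terms fitted with stage on all 8 libraries. Median centring of the list counts was added after the data were seen.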

Additional observations from a re-analysis of the deposited data

Results flagged for a closer look

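In 4 of 18 groups of 4 libraries examined (9 genes in 2 stages), 1 library lay so far from the other 3 that its gap to the nearest passed Dixon's 95% critical value, as a share of the range, for 4 samples. For independent replicates chance gives such a gap in about 1 in 20 groups. Here the groups share their libraries, which differ in protocol or gel window, and library 8 was known beforehand to stand apart. The count is therefore not a test against that rate. All 4 outlying libraries were in L4. Library 8 was the outlying one for lin-41 (65.2 RPKM, gap 0.993 of the range), lin-42 (0.951 RPKM, 0.867) and hbl-1 (0.820 RPKM, 0.945). The hbl-1 value rests on 9 reads, with a counting interval of 0.375 to 1.56 RPKM that overlaps those of libraries 5, 6 and 7. Library 7 was the outlying one for lin-28 (17.4 RPKM, 0.884), on 66 reads and with a counting interval of 13.4 to 22.1 RPKM, which overlaps those of libraries 5 and 6.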

How the results depend on the processing

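Without L4 library 8 the number of timing genes called by stage was 7. It stayed between 6 and 7 when each library was left out in turn, daf-12 being the gene lost in 4 of 7 such fits, and fell to 4 with median centring, 4 with quantile normalization and 4 of 5 tested with a filter at an RPKM of 10. Over all CDS median centring and quantile normalization called 9108 and 8926 of 13494, and the filter at 10 called 5413 of 7781. With all 8 libraries 4 timing genes were called, against 2 with median centring, 2 with quantile normalization and 2 with the filter at 10. Leaving out each library in turn gave between 0 and 7, the 7 without library 8. Over all CDS median centring and quantile normalization called 5103 and 5080 of 13592, and the filter at 10 called 3308 of 7837. For isolation 1 gene was called, against 2 with the filter at 10, 2 with median centring, 2 without the abundance trend, 3 with voom and 0 when fitted with stage on all 8 libraries. Over all CDS isolation called 39.0% as fitted, 38.1% with median centring and 46.9% with voom. For preparation 2 genes were called, against 1 with no filter, 1 with the filter at 10, 1 with median centring, 1 with quantile normalization, 4 with voom and 0 when fitted with stage. Over all CDS preparation called 35.9% as fitted, 31.8% with median centring and 46.7% with voom. The cause of these changes in the number of genes called was not tested, except that the stricter filter leaves fewer genes. The stage sign turned for lin-28 with median centring (+0.16 with 7 libraries, +0.12 with 8) and quantile normalization (+0.0637 and +0.0441), and for daf-12 with quantile normalization (+0.0900 and +0.22) and, with 8 libraries, median centring (+0.0789). None of these was called. The kit difference of mab-10 was -0.00196 as fitted and +0.0123 with voom, and ran from -0.0316 to +0.0277, with no test, when each library was left out. Of the 117 alternative values of single genes with 7 libraries, 105 kept sign and side of the threshold. lin-41, lin-42, lin-29 and mab-10 did so in all of them. Over all CDS, 5264 of 13592 were called by stage with 8 libraries, 381 to 9352 when each library was left out and 3308 of 7837 with the filter at 10. With 7 libraries 9352 of 13494 were called, and 5413 of 7781 with that filter. Isolation called 4511 of 11569 CDS and preparation 4152 (2626 without the trend). Fitted with stage on all 8 libraries limma called 0 for either, with 223 and 364 at an unadjusted p under 0.05. The differences of that fit are the same, and its error also takes in the spread of the L4 libraries, library 8 included. Leaving out a library from the isolation or preparation fit leaves no residual degree of freedom, so no calls were made. Depth limits lin-46, hbl-1 and every value of library 8 with few reads.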

Other observations

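Markers of other tissues give the setting of the timing genes by stage. Over all CDS 22.7% were called higher and 46.6% lower with 7 libraries (36.6% and 30.9% with median centring). With 8 libraries these shares were 11.1% and 27.6% (21.7% and 15.8% with centring). Of 12 sperm markers 1 rose, 6 fell and 5 were not called with 7 libraries, and 1 rose and 11 were not called with 8. With median centring 3 rose and 3 fell with 7 libraries, and 3 rose and 9 were not called with 8. Within young adults 11 of the 12 passed the filter on low values, and the other passed it only with L4 libraries included. The major sperm protein gene msp-64 averaged 171 ± 34.3 RPKM in young adults and 143 ± 14.7 in L4 libraries 5 to 7 (SD, n = 4 and n = 3) and was not called, msp-49 rose (+0.82) and gsp-3, a sperm phosphatase gene, fell (26.3 ± 1.72 and 71.7 ± 10.6 RPKM), a call lost with 8 libraries (-0.87, limma adjusted p = 0.157). Reads of major sperm protein genes are uncertain, since near-identical copies can share them. All 10 muscle markers fell with 7 libraries (7 with median centring), and 6 with 8. The troponin C gene pat-10 averaged 1671 ± 282 RPKM in young adults and 5164 ± 1167 in L4 libraries 5 to 7, and the tropomyosin gene lev-11 averaged 765 ± 161 and 2745 ± 741. Of 8 tested neuron markers 7 fell with 7 libraries and 3 with 8 (4 and 2 with median centring), among them the synaptobrevin gene snb-1 with 146 ± 29.1 and 239 ± 12.7 RPKM. Within young adults 7 of these 8 passed the filter, and the other passed it only with L4 libraries included. Of 8 intestine markers 5 fell and 1 rose with 7 libraries, the riser being cpr-6, a cathepsin B-like gene (897 ± 81.4 and 535 ± 56.02 RPKM), and 1 fell and 1 rose with 8. With median centring 2 fell and 2 rose with 7 libraries, and 1 fell and 2 rose with 8.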
